A study of Mus musculus with 2 samples.

Results

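Mir143 and Mir145a are the 2 microRNA genes whose levels are described here, in tissue labelled as a layer of the hippocampus, from 2-month-old male mice of B6CASTF1/J, an F1 hybrid strain. They were chosen by name, from 2202 listed miRNA genes, as the clustered pair known from pericytes and smooth muscle. Libraries of RNA under 30 nt were sequenced from 1 group with 2 biological replicates, which the labels tie to separate biosamples and a single donor entry, so the spread between them may not cover the spread between animals. No treatment, genotype contrast or second tissue was present. Mir143 (ENSMUSG00000065445.3) lies on chromosome 18 at positions 61649196 to 61649258 of mm10, on the minus strand. Mir145a (ENSMUSG00000065592.2) lies at positions 61647825 to 61647894 on the same strand, 1301 nt downstream in the direction of transcription. In GENCODE M21 neither gene overlaps a gene of another class. The noncoding gene Carmn, on the same strand, ends 366 nt upstream of Mir143, and the noncoding gene Bvht, on the opposite strand, ends 352 nt beyond Mir145a. The RefSeq entry for Carmn, which also carries the older name Mir143hg, spans both hairpins.

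MicroRNAs are small RNAs processed from hairpins, and they lower the output of messenger RNAs that pair with their seed. Mir143 and Mir145a are known to be made from a shared primary transcript that serum response factor and its cofactor myocardin switch on, and their products favour the contractile state of vascular smooth muscle. In brain the pair is known chiefly as a product of mural cells, the smooth muscle cells and pericytes that wrap arterioles and capillaries. The libraries came from bulk tissue, so fewer cells of a type and less RNA per cell cannot be told apart, and the cells that made these reads were not observed.

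Mir143 was an abundant gene and Mir145a a moderate one. Counts are given as CPM, the reads of a gene per 1000000 reads counted on miRNA genes of that library, and detection required at least 2 CPM in each library, which 401 genes met. The libraries held 2322520 such reads in replicate 1 and 3414105 in replicate 2, with 42.6% and 46.0% of all reads set aside as multimapping. Mir143 had 14689 counts in replicate 1, or 6325 CPM with an exact Poisson 95% interval of 6223 to 6428. It had 22998 counts in replicate 2, or 6736 CPM with an interval of 6649 to 6824. Mir145a had 305 counts in replicate 1, or 131 CPM with an interval of 117 to 147. It had 678 counts in replicate 2, or 199 CPM with an interval of 184 to 214. The 2 genes did not come near each other in either library, and both were higher in replicate 2.

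Reads of the pair fell on a single strand, and the hairpins shared little sequence with other genes. Both hairpins had 0 opposite-strand reads in both libraries, and the both-strand column held the same counts as the same-strand column. Neither hairpin shared a run of 20 nt with another listed miRNA gene, against 84 of the 401 detected genes (20.9%) that did. The longest run shared by the Mir143 hairpin of 63 nt with any other was 11 nt, and the members shared 5 nt with each other. The Mir145a hairpin of 70 nt shared 17 nt with Mir145b, a separate gene on the same chromosome. Mir145b had 0 counts in both libraries. A fixed limit of 3 counts was set for it, or 1.29 CPM in replicate 1 and 0.879 CPM in replicate 2. Against that limit Mir145a was at least 102-fold higher in replicate 1 and at least 226-fold higher in replicate 2. Whether some Mir145a reads were set aside as multimapping because of Mir145b was not tested. Intervals and limits cover counting error only, since amplified reads without molecular identifiers are not independent molecules.

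**Figure D1:**
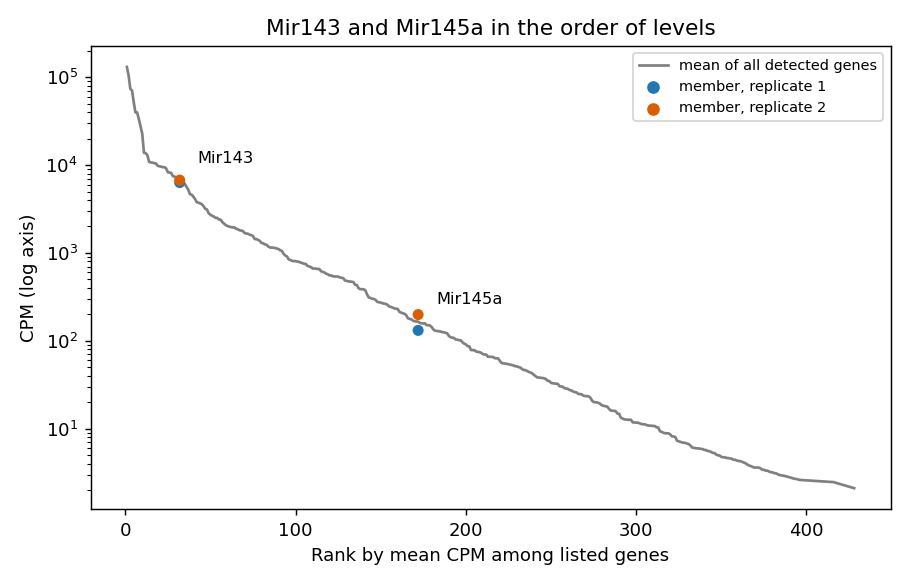
Mean CPM of the detected miRNA genes on a log axis against their rank, with Mir143 and Mir145a in replicate 1 (blue) and replicate 2 (orange). Mir143 stands at rank 32 by mean, on the steep upper part, and Mir145a at rank 172, on the long middle slope.

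In the order of levels, Mir143 stood at rank 31 in replicate 1, rank 29 in replicate 2 and rank 32 by mean CPM, at 6530 ± 291 CPM (SD, n = 2). Of the detected genes, 369 had a lower mean. Its nearest neighbours above were Mir379 at 6674 ± 343 CPM, a gene of the imprinted Dlk1-Dio3 domain, Mir221 at 7162 ± 2454 CPM and Mir411 at 7383 ± 267 CPM. Those below were Mir92b at 6359 ± 205 CPM, Mir98 at 6244 ± 2851 CPM and Mir361 at 6077 ± 512 CPM. Mir411 was above Mir143 in both libraries and Mir92b below it in both. Mir379, Mir221, Mir98 and Mir361 were above it in replicate 1 and below it in replicate 2, so their order was not resolved. In all, 25 detected genes were higher than Mir143 in both libraries, 367 were lower in both and 8 changed side. This order counts placed reads only, with multimapping reads set aside. For the 84 detected genes that share 20 nt with another miRNA gene, the part of their reads that could be placed is unknown. Some of those genes, and some undetected ones, may therefore stand too low.

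Mir145a stood at rank 178 in replicate 1, rank 160 in replicate 2 and rank 172 by mean, at 165 ± 47.6 CPM (SD, n = 2). That level was above the median detected gene, at 87.0 CPM, and 229 detected genes had a lower mean. The order around it was less resolved, since 24 detected genes changed side between the libraries, while 156 were higher and 220 lower in both. Next above were Mir329 at 166 ± 80.1 CPM, Mir376b at 167 ± 6.13 CPM and Mir873a at 169 ± 6.40 CPM. Next below were Mir351 at 160 ± 27.5 CPM, Mir188 at 158 ± 25.5 CPM and Mir30c-1 at 157 ± 10.6 CPM. All 6 of these changed side relative to Mir145a between the libraries. As for Mir143, the order counts placed reads only, so genes that share sequence with another miRNA gene may stand too low.

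Likeness was taken as the distance between genes in log2 CPM over the 2 libraries, which is few samples for a pattern. Mir92b was nearest to Mir143, at a distance of 0.06, with 6214 CPM in replicate 1 and 6504 CPM in replicate 2. Mir379 followed at 0.15 and Mir361 at 0.24. Mir351 was nearest to Mir145a, at 0.18, followed by Mir188 at 0.20 and Mir1224 at 0.27. Such genes have like levels here, and nothing further was measured about them.

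The Mir143 reads outnumbered the Mir145a reads 48.2-fold in replicate 1, with a 95% interval of 43.0 to 53.9 from the Wilson interval of the share. In replicate 2 the ratio was 33.9-fold, with an interval of 31.4 to 36.6. The intervals of the 2 libraries did not overlap, so the ratio moved between libraries by more than counting error, while its direction and order of size did not. Mir145a made up 2.03% of the pair's reads in replicate 1 (Wilson 95% interval 1.82 to 2.27) and 2.86% in replicate 2 (2.66 to 3.08). On the log2 scale the ratio averaged 5.34 ± 0.36 (SD, n = 2). A read covers about a whole mature microRNA, so CPM was not divided by length. Per nucleotide of hairpin the Mir143 level was 53.5-fold the Mir145a level in replicate 1 and 37.7-fold in replicate 2. How efficiently each sequence entered the libraries was not measured, and both arms of a hairpin are summed in a gene's count.

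Neighbouring miRNA genes in these libraries often differed widely, and the pair lay toward the wider end. Among detected genes, 108 neighbouring pairs lay on a shared strand within 10 kb of each other. The median size of the ratio of mean CPM was 6.46-fold, against 39.6-fold for Mir143 over Mir145a, which ranked 17th widest. The upstream gene had the higher level in 55 of the pairs, as it did here, and the downstream gene in 53. Mir30d over Mir30b, at 42.0-fold, ranked next above. Mir212 and Mir132, the activity-regulated pair, ranked next below, with the downstream gene 39.4-fold higher. The widest were Mir544 and Mir382 at 1755-fold, Mir29b-1 and Mir29a at 300-fold, and Mir323 and Mir758 at 199-fold. Mir544, at a mean of 4.73 CPM, and Mir758, at 4.57 CPM, lay near the detection limit of 2 CPM. The pairs of Mir29b-1 and of Mir323 each hold a gene that shares 20 nt with another miRNA gene. In the 67 pairs with no gene sharing 20 nt with another miRNA gene the median was 7.04-fold and Mir143 with Mir145a ranked 7th. These ranks are a description of 2 libraries, with no test.

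**Figure D2:**
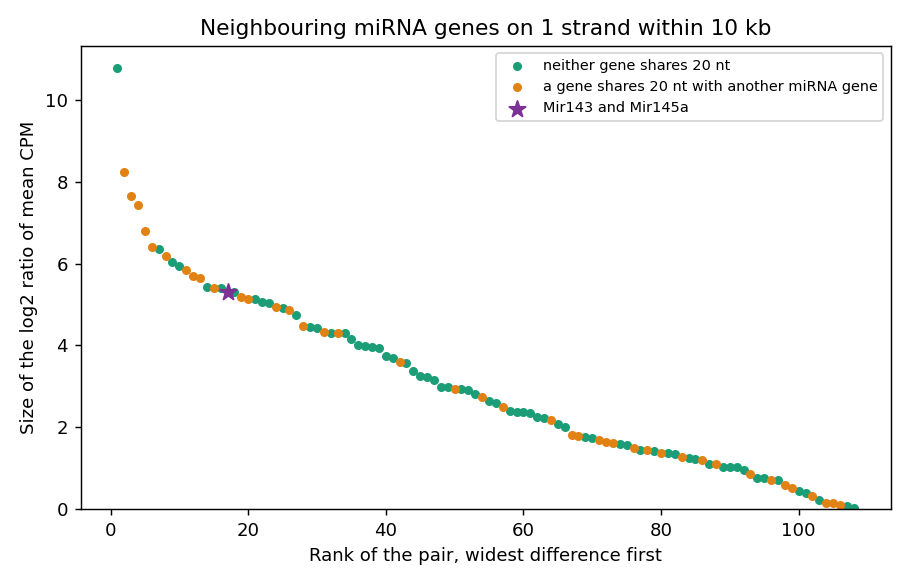
Size of the log2 ratio of mean CPM for each of 108 neighbouring miRNA gene pairs, ordered from the widest, with pairs free of shared 20 nt sequence in green and the others in orange. The star marks Mir143 with Mir145a, at rank 17 and a log2 ratio of 5.31, near Mir30d with Mir30b and Mir212 with Mir132.

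Between the libraries, Mir143 was among the steadier genes and Mir145a was not. In an exact binomial test of every detected gene, adjusted over all 401 after Benjamini and Hochberg, both members were called different between the libraries, where 50.9% of all detected genes were. With calls that common, a call by itself did not set the members apart, and the test compares libraries and not conditions. Mir143 was 1.05-fold higher in replicate 2, a log2 ratio of 0.07 (adjusted exact binomial p = 4.60e-05), and 359 detected genes differed by more. Mir145a was 1.48-fold higher, a log2 ratio of 0.57 (adjusted exact binomial p = 1.83e-08), and 101 detected genes differed by more. The median detected gene differed 1.26-fold. As a share of the mean, the SD between libraries was 4.46% for Mir143 and 28.8% for Mir145a. The biological coefficient of variation that edgeR estimated over all detected genes was 29.9%, close to the value of Mir145a. Counting alone gives 5.73% for Mir145a in replicate 1 and 3.84% in replicate 2, below the 28.8% seen between the libraries.

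**Figure D3:**
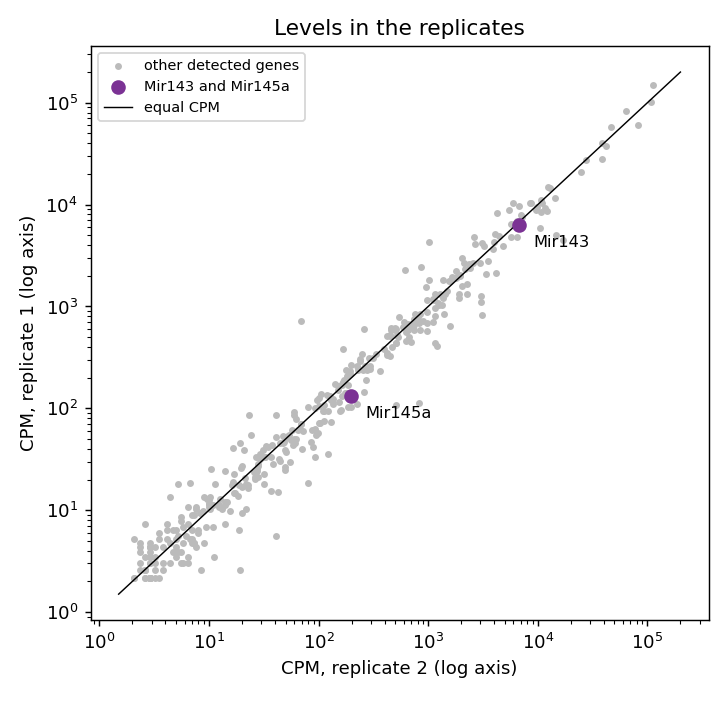
Each point is a detected miRNA gene, plotted by CPM in replicate 2 on the horizontal log axis and CPM in replicate 1 on the vertical log axis, with the line of equal CPM in black. Mir143 (6736 and 6325 CPM) lies almost on the line, and Mir145a (199 and 131 CPM) below it.

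Summed, the 2 genes held 6456 CPM in replicate 1 and 6935 CPM in replicate 2, of which Mir143 gave 98.0% and 97.1%. They made up 48.7% and 53.5% of the counts of the 57 listed miRNA genes of their chromosome, of which 10 were detected. The next genes of that chromosome were Mir378a, at 3784 ± 147 CPM, and Mir187, at 2508 ± 678 CPM (SD, n = 2).

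Vascular comparison genes placed the pair within a broad range. Mir126a, the endothelial microRNA made from Egfl7, was at 14889 CPM in replicate 1 and at 12474 CPM in replicate 2. Mir143 was at 0.425 and 0.540 of the Mir126a level in the same libraries, and Mir145a was at 0.00882 and 0.0159 of it. Mir143 was thus below Mir126a in both libraries, and the gap was narrower in replicate 2. Its overlapping antisense gene Mir126b had 0 counts in both libraries. The both-strand column could not be used for this comparison, because it left 0 and 5 reads on Mir126a.

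The perivascular mesenchymal list, of Mir199a-1, Mir199a-2, Mir199b and Mir214, summed to 20.7 and 26.9 CPM, and the members exceeded it 312-fold in replicate 1 and 257-fold in replicate 2. Nearly all of its reads came from Mir214, at 23.3 ± 4.33 CPM (SD, n = 2), since the 3 Mir199 genes had 1 read in replicate 1 and 2 reads in replicate 2. Mature sequences of the comparison genes are shown because they bear on which reads could be placed and on how genes of the next list relate, from RefSeq on GRCm38.p6, with the seed (bases 2 to 8) in capitals.
miR-126a-3p: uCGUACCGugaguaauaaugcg
miR-199a-3p: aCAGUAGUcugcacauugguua
miR-199b-3p: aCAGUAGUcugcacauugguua
miR-221-3p: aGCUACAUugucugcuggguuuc
miR-222-3p: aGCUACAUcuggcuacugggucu
The miR-199a-3p and miR-199b-3p sequences are identical, so their reads cannot be placed on 1 gene, and the low counts do not show how much of these RNAs was present. The miR-221-3p and miR-222-3p sequences share their seed and differ after it.

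Genes known to modulate smooth muscle growth and phenotype were spread over a wide range, and 8 of the 12 listed were detected. Mir221, known to promote smooth muscle proliferation, was at 8897 CPM in replicate 1 and at 5426 CPM in replicate 2, so its range enclosed that of Mir143. Mir222, with which it shares a seed, was at 1154 ± 92.5 CPM (SD, n = 2), and Mir21a was at 978 ± 238 CPM. Both lay below Mir143 and above Mir145a in each library. Mir31 was at 724 CPM in replicate 1 and at 69.4 CPM in replicate 2, so Mir145a lay below it in replicate 1 and above it in replicate 2. The 2 Mir24 and 2 Mir26a genes had means between 19.6 and 37.9 CPM. Mir133a-1, Mir133a-2, Mir1a-1 and Mir1a-2, known from striated and smooth muscle, had 0 counts. Each of the 8 genes in these 4 groups holds a run of at least 20 nt that another miRNA gene also holds, so the part of their reads that could be placed is unknown. Of the 8 detected genes of the list, 4 were higher and 2 lower in replicate 2 by the exact binomial test, where 28.2% and 22.7% of all detected genes were. The list summed to 11590 and 8006 CPM, and the pair was at 0.557 and 0.866 of it, a difference no larger than 2 SD of the log2 ratio.

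**Figure D4:**
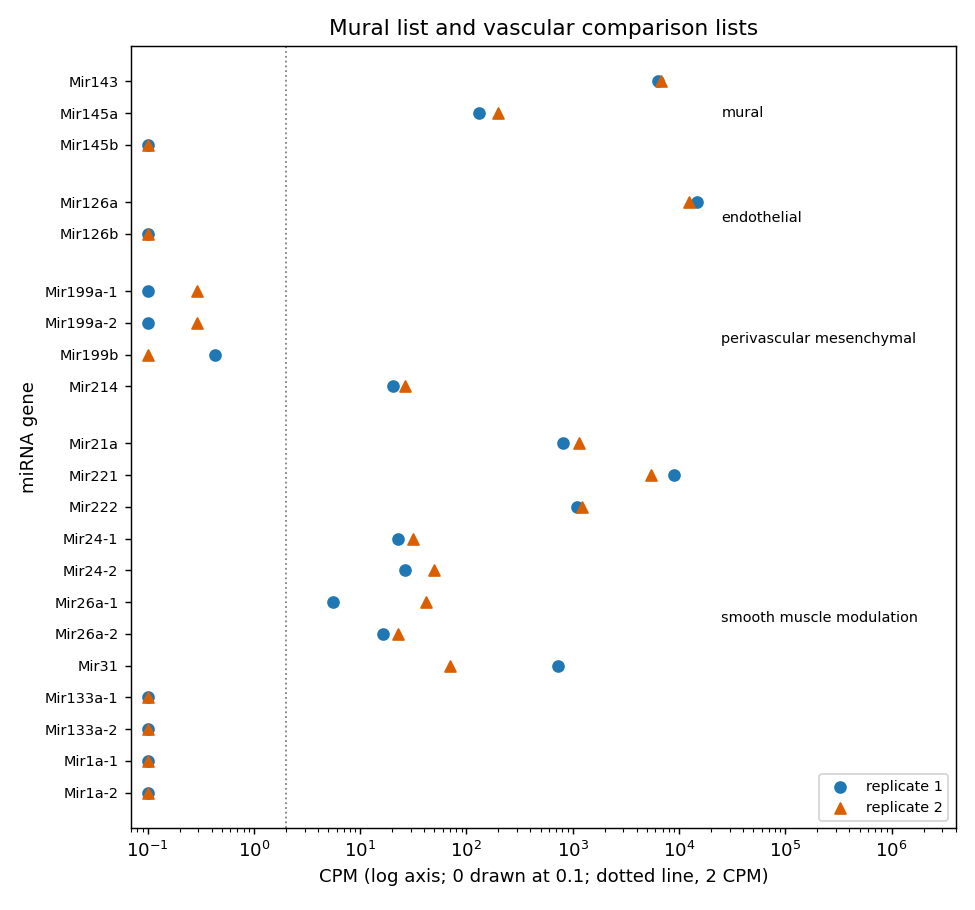
CPM on a log axis of each gene of the mural, endothelial, perivascular mesenchymal and smooth muscle modulation lists in replicate 1 (blue circles) and replicate 2 (orange triangles), with 0 drawn at 0.1 CPM. Mir143 sits near Mir221 and below Mir126a, at means of 6530, 7162 and 13681 CPM, and Mir145a sits below Mir21a, at 131 and 199 CPM.

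Against lists for other cell types, the pair was compared by summed CPM, and a ratio counted as beyond the spread of the replicates if both libraries put it on one side of 1 and the mean of its log2 was over 2 SD. By that rule the pair exceeded the choroid plexus list, with ratios of 6.14 in replicate 1 and 6.98 in replicate 2. Its sum was 5.12-fold and 4.34-fold that of the microglia and leukocyte list. For the erythrocyte list the ratio was 3.36-fold in replicate 1 and 6.03-fold in replicate 2. The pair was below the endothelial list, at 0.434 and 0.556 of its sum, and below the neuron-enriched list of 21 genes, at 0.183 and 0.136 of its sum. The ratio to the oligodendrocyte list, at 1.48-fold and 2.58-fold, was on 1 side of 1 in both libraries but did not exceed 2 SD. Sums over lists of unequal length do not compare levels per gene, and 16 of the 21 neuron-enriched genes hold such a shared run of 20 nt, as do 2 of the 3 oligodendrocyte genes and 1 of the 6 microglia and leukocyte genes. With only the 5 other genes of the neuron-enriched list, the pair was at 0.294 of the sum in place of 0.159, as means over the libraries. With Mir338 as the remaining oligodendrocyte gene, the pair was at 3.38-fold and 3.83-fold, beyond 2 SD. Over the remaining microglia and leukocyte genes it was at 9.56-fold and 6.30-fold. Leaving genes out of a list can only raise the ratio of the pair to it, so the direction of these changes was fixed in advance. They do not show that the full lists gave too low a ratio.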

How the data were processed

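MicroRNA-seq of hippocampus was analysed in 2 libraries of 1 group. RNA was under 30 nt and reads were placed on mm10, per the labels. The deposited descriptions name annotation M21. The deposited values were raw counts per miRNA gene for both strands, the same strand and the opposite strand, and the same-strand column was used. The aligner and counter are not given in the sources used here. The 4 rows naming no gene (unmapped, multimapping, no feature, ambiguous) held 63.9% and 65.9% of all reads and stayed out of library sizes.

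Symbols came from GENCODE M21, to which all 2202 identifiers matched. Counts were scaled to CPM. The libraries were compared gene by gene across all detected genes with the exact binomial test (two-sided), using library sizes scaled by TMM factors from edgeR 4.0.16, with Benjamini-Hochberg adjustment at 0.05. The test was checked on counts simulated with counting error only. That check does not cover spread between libraries beyond counting error. Log2 ratios of replicate 2 to replicate 1 used 0.5 added to each count, and the other log2 values had nothing added. No condition was tested, since the labels give 1 group. The genes named were the members, the 3 nearest in level on each side, the 3 most alike, the vascular lists, and the neighbouring pairs next to the members and the 3 widest. Mir378a, Mir187 and Mir338 are named outside that rule, chosen after their values were seen. Egfl7, Carmn (also Mir143hg) and Bvht are also outside it, named as host or nearby genes with no level measured here. Members and lists were chosen with earlier results of these data known. Of 60 listed symbols 59 matched, and the unmatched one was Mir486b. Alternatives covered the strand column, denominator, DESeq2 1.42.0 size factors, low-count filter, neighbour distance and leaving out each replicate.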

Additional observations from a re-analysis of the deposited data

How the results depend on the processing

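Mir143 CPM moved beyond its replicate SD to 7051 with the both-strand column, to 2290 when all reads formed the denominator and to 11486 when the total left out the 5 leading genes. Mir145a CPM moved to 57.6 and 289 under the last 2 settings. TMM and DESeq2 scaling moved neither gene beyond that SD. With the both-strand column the rank of Mir143 was 29 and that of Mir145a 157. Leaving out each replicate gave Mir143 ranks of 29 to 31, Mir145a ranks of 160 to 178, and pair ranks among neighbours of 14 to 22. The pair ranked 14th of 86 within 2 kb and 19th of 119 within 50 kb, 7th of 65 with both genes at 100 CPM or more, and 7th of 67 without sequence-sharing genes. The pair over the neuron-enriched list was 0.294 without such genes, a rise fixed in direction because leaving genes out lowers the sum. That alternative was chosen after seeing the data. So were leaving such genes out of the other cell-type lists and leaving out replicates for the pair ranks. Genes differing between the libraries numbered 198 and 205 of 401 with DESeq2 size factors and plain totals, 184 of 376 (48.9%) with the both-strand column and 210 of 715 (29.4%) without the low-count filter, against 204 of 401 (50.9%), and both members kept their direction and call. For Mir143 the call was marginal with DESeq2 size factors, at a log2 ratio of 0.03 (adjusted exact binomial p = 0.0489). No paired analysis was possible because there is 1 group. With 2 libraries, SDs are imprecise, and depth limits counts below 2 CPM.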
